A study of Gallus gallus with 15 samples.

Results

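G3D, the chicks whose eggs stood under green monochromatic illumination (GMI) for only the last 3 days of incubation, was compared with Control, the chicks whose eggs were incubated in the dark. The comparison holds 8 of the 15 hypothalamic libraries of the series, chosen by the lighting regime in their labels: 4 Control libraries (replicates 4, 5, 6 and 8) and 4 G3D libraries (replicates 1, 5, 6 and 7). All of them came from one hypothalamic hemisphere of unmanipulated Ross 308 broiler chicks, a fast-growing meat strain, taken at day of hatch (DOH). The labels call the Control chicks male and give no sex for G3D, while the study describes the chicks of every group as male. The lamps hung over egg trays parted by light-proof dividers and the trial, tray and hatcher of each chick are not given, so that light and place of incubation cannot be told apart. The remaining 4 White and 3 Green libraries, incubated under white or green light from start to hatch, entered the fit to estimate the spread and are set beside G3D near the end.

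The hypothalamus sets feeding, growth, body temperature and hormone release through small groups of neurons, each of which makes one or a few neuropeptides and releases them from dense-core granules. Its peptides include somatostatin, which restrains growth hormone release from the pituitary, and AGRP and galanin, which drive feeding. In birds, light reaches these neurons by way of the retina, the pineal gland and photoreceptors deep in the brain. Calcium and cAMP signals in an active neuron switch on peptide genes through the transcription factor CREB.

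Bulk MARS-Seq counts RNA molecules from their 3′ ends and removes amplification copies with the help of a random barcode on each molecule. Total counts ran from 6066732 to 9501555 in Control and from 4196251 to 7979031 in G3D, and 10475 genes passed the expression filter. Levels are given as CPM, counts scaled to a common library total, always in the order Control replicates 4, 5, 6 and 8 and then G3D replicates 1, 5, 6 and 7. Because each transcript is read at one end, CPM needs no length term, although levels of different genes also depend on how well each 3′ end is annotated. Deposited identifiers carry no gene names. A symbol could be given to 568 of the genes tested (5.42%), and each of these had been selected as differing on these same chicks, 538 of them in G3D. Counts of named genes are therefore not independent evidence of a direction. Nor can fewer cells of a type be told apart from less RNA per cell in such bulk tissue.

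Few genes passed correction. At an adjusted p-value (padj) under 0.05 in edgeR's quasi-likelihood test, 3 genes rose in G3D (0.0286% of 10475) and 7 fell (0.0668%). For each of these 10 genes, no G3D library lay within the Control range. Before correction, p was under 0.05 for 713 higher (6.81%) and 924 lower genes (8.82%). Libraries did not overlap for 390 higher genes (3.72%) and 423 lower genes (4.04%), calls or not. DESeq2 on the same counts called 82 genes higher (0.465% of the 17639 it gave a p-value) and 141 lower (0.799%), including all 10 of edgeR's calls. The 17639 include weakly counted genes, which DESeq2 can leave without a padj, so these percentages are not comparable with those of edgeR. Among the 568 genes with a symbol, 176 were higher (31%) and 349 lower (61.4%) at an unadjusted p under 0.05, and 116 (20.4%) and 156 (27.5%) had no overlap. These last percentages are the background against which the gene lists are read, and they do not take the level of a gene into account.

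The direction differed with the level of expression. When the 10475 genes were ordered by mean CPM over the 15 libraries and divided into quartiles, 69.5% of the genes at an unadjusted p under 0.05 were lower in G3D in the weakest quartile (64 higher, 146 lower). The share was 74.4% in the next quartile (96 and 279) and 59.1% in the one after it (197 and 285). In the strongest quartile, at or above 49.7 CPM, it was 37.5%, with 356 genes higher and 214 lower. The median log2 fold change of all genes moved the same way, from -0.12 and -0.09 through -0.01 to 0.07. Depth differed too, since the G3D libraries held 12270 to 13477 genes with a count and the Control libraries 13040 to 13913. When every library was thinned to 3944530 counts, an alternative chosen after seeing the data, the ranges were 12220 to 12664 and 12572 to 12790 genes, and the 4 shares were 74.2%, 73.5%, 60.5% and 38.8%.

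**Figure D1:**
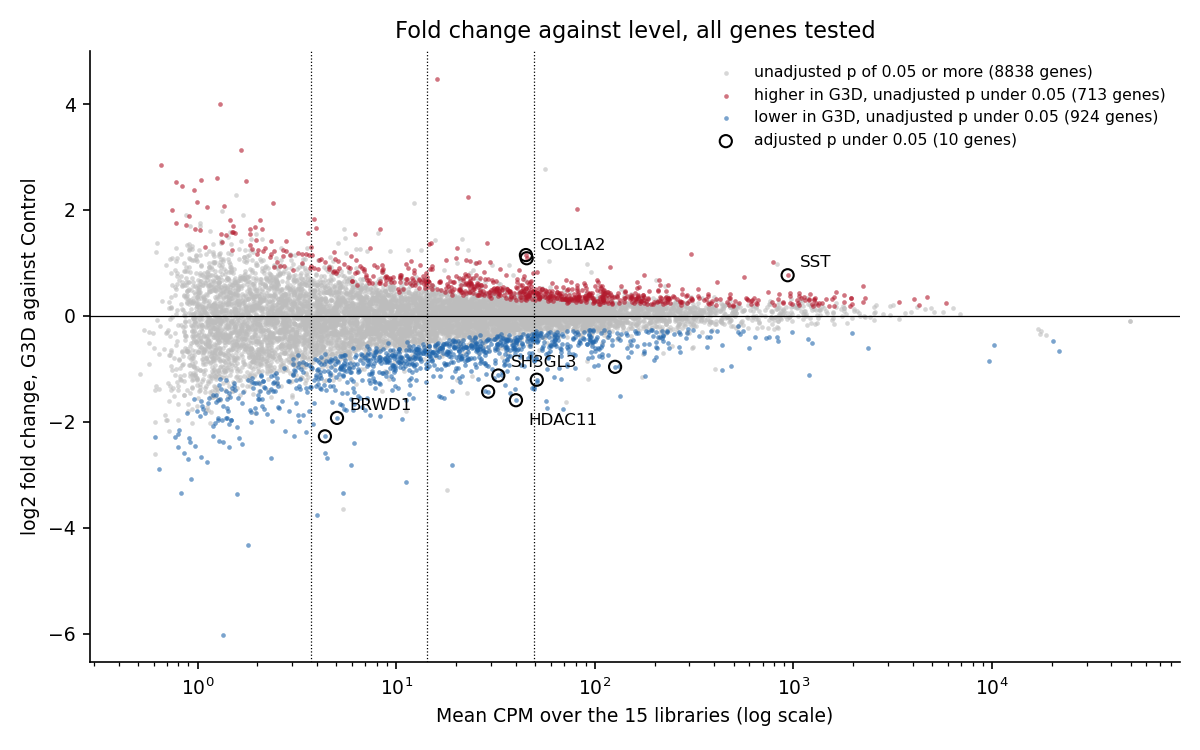
Each point is 1 of 10475 genes, placed by its mean CPM over the 15 libraries (log axis) and its log2 fold change in G3D against Control, with dotted lines between the quartiles of level. Red genes (713) and blue genes (924) had an unadjusted p under 0.05, open circles mark the 10 genes with a padj under 0.05, and blue outnumbers red in every quartile except the strongest.

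SST and COL1A2 were the genes with a symbol that rose. SST, the precursor of somatostatin, stood at 616, 844, 749.9 and 620.4 CPM in Control and 1373, 1208, 1058 and 1177 CPM in G3D. All 4 G3D libraries exceeded the highest Control library, and the rise was 1.70-fold (log2 fold change 0.77 ± 0.13 (SE), padj = 0.0249). COL1A2, a chain of fibrillar type I collagen, measured 31.3, 32.2, 28.98 and 40.02 CPM in Control and 52.9, 91.3, 59.4 and 77.6 CPM in G3D. Its rise was 2.13-fold (log2 fold change 1.09 ± 0.19 (SE), padj = 0.0249), with G3D replicate 5 the highest library. The remaining gene that rose has no symbol. ENSGALG00000055094 was at 38.9, 23.9, 20.1 and 35.7 CPM in Control and 87.3, 39.7, 70.96 and 66.1 CPM in G3D (log2 fold change 1.15 ± 0.22 (SE), padj = 0.0375), and here G3D replicate 5 lay just above the highest Control library.

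HDAC11, BRWD1 and SH3GL3 were the genes with a symbol that fell. HDAC11, a histone deacetylase, dropped to about 0.331 of its Control level (log2 fold change -1.59 ± 0.27 (SE), padj = 0.0249). Its libraries read 65.3, 45.5, 45.8 and 57.2 CPM in Control and 18.2, 19.6, 15.01 and 17.8 CPM in G3D, and the 4 G3D values lay close together. BRWD1, a chromatin protein with bromodomains and WD repeats, was weakly expressed at 7.98, 4.72, 8.48 and 5.89 CPM in Control and 1.48, 1.53, 1.82 and 2.29 CPM in G3D (log2 fold change -1.93 ± 0.37 (SE), padj = 0.0435). SH3GL3, endophilin A3, which bends membrane during endocytosis, had 36.3, 44.6, 42.4 and 45.6 CPM in Control and 18.5, 25.9, 14.3 and 17.96 CPM in G3D (log2 fold change -1.13 ± 0.21 (SE), padj = 0.0323). G3D replicate 5 was the nearest to Control for SH3GL3 but still below every Control library.

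The smallest padj belonged to a gene without a symbol. ENSGALG00000042182 read 69.4, 72.2, 55.5 and 64.99 CPM in Control and 27.1, 28.6, 27.8 and 30.2 CPM in G3D (log2 fold change -1.21 ± 0.14 (SE), padj = 0.000242), and it kept a padj under 0.05 in all 8 fits that left out 1 of these libraries. ENSGALG00000041996 was weakly expressed, with 4 to 71 counts per library, and fell to about 0.207 of its Control level. It was at 5.39, 7.61, 8.48 and 6.36 CPM in Control and 2.67, 1.02, 1.14 and 0.764 CPM in G3D (log2 fold change -2.27 ± 0.38 (SE), padj = 0.0249). The other 2 unnamed genes that fell had log2 fold changes of -0.96 and -1.43 (padj = 0.0249 and 0.0329). The two-sided exact permutation test gave each of the 10 genes p = 0.0286, the smallest p that 70 divisions of 4 against 4 libraries allow. Groups that do not overlap always give this value, so it adds nothing to the lack of overlap. Leaving out Control replicates 4, 5, 6 or 8 kept 7, 2, 1 and 1 of the 10 calls, and leaving out G3D replicates 1, 5, 6 or 7 kept 3, 10, 3 and 1. Of these 8 fits, SST kept its call in 4, COL1A2 in 3 and SH3GL3 in 2. HDAC11 and BRWD1 each kept it in 1, the fit without G3D replicate 5.

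**Figure D2:**
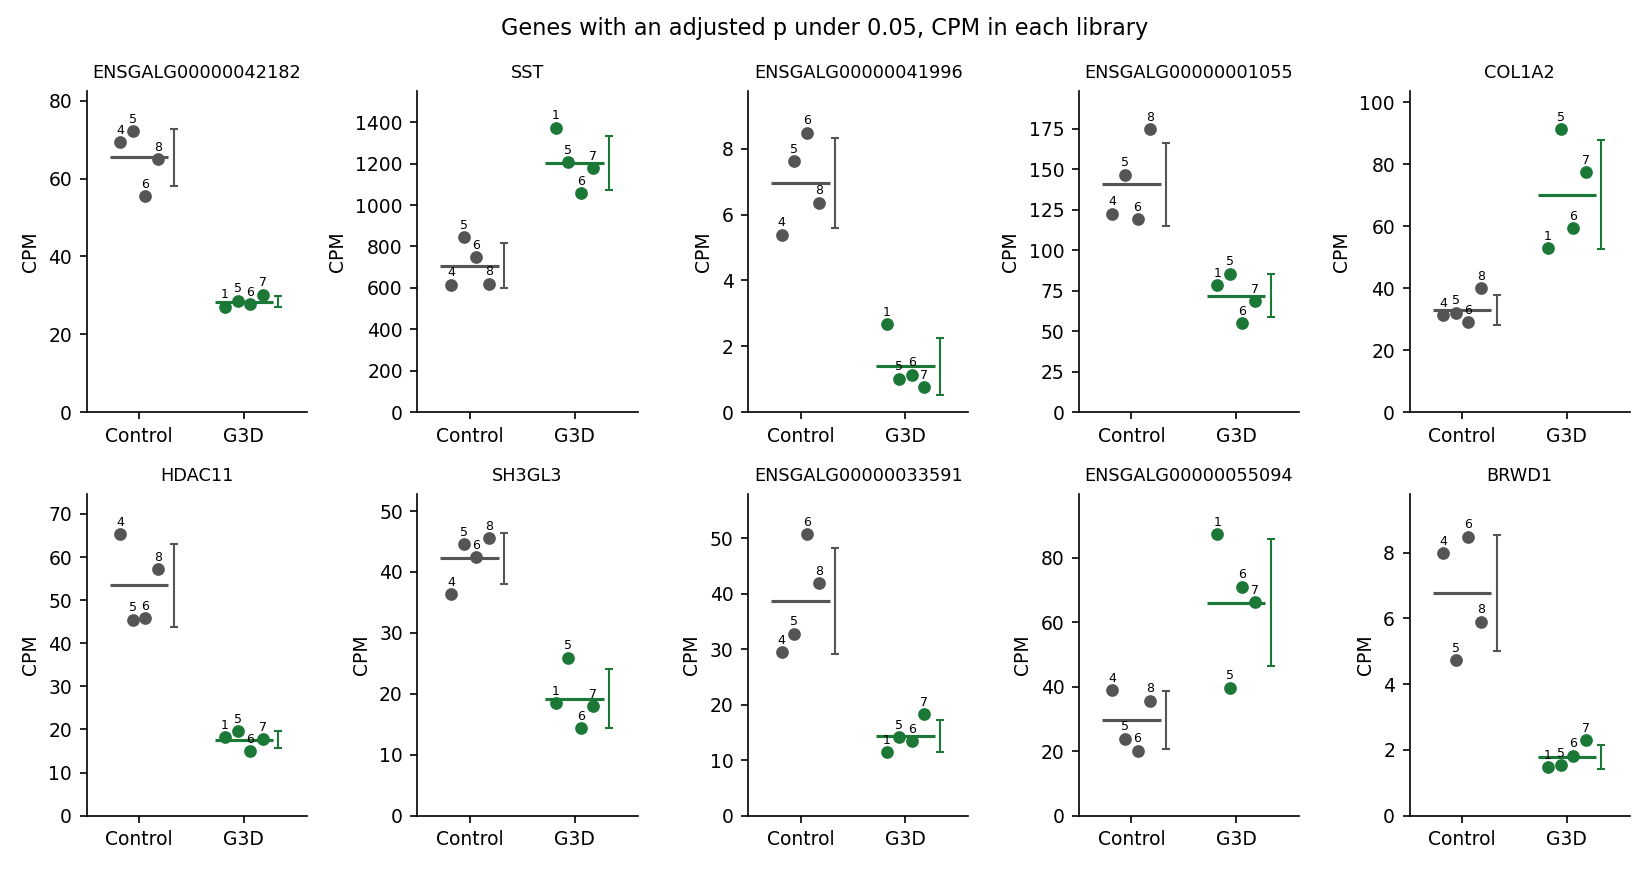
CPM of the 10 genes with a padj under 0.05 in each Control (grey) and G3D (green) library, with the replicate number above each point, the group mean as a line and its SD (n = 4) as a bar. In all 10 panels the groups are separate, by a narrow gap for ENSGALG00000055094 (39.7 against 38.9 CPM) and a wide one for HDAC11 (19.6 against 45.5 CPM).

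Just past the threshold, 13 genes had a padj from 0.05 to 0.1, 6 of them higher and 7 lower, and none of the 13 overlapped between groups. Of these, 12 carry a symbol and were singled out after their values were seen, apart from those that the lists below name. SIX3, a homeobox factor of the anterior forebrain, was at 111, 139.6, 129 and 129 CPM in Control and 233, 192, 196 and 245 CPM in G3D (padj = 0.0737). SHISA2, which in frog embryos holds back Wnt and FGF receptors, and SEMA3G, an axon guidance cue, were about 2-fold higher, at log2 fold changes of 1.03 and 1.05 (padj = 0.0762 and 0.0737). DNMT3A, which lays down new DNA methylation, was at 467, 552, 334 and 447 CPM in Control and 961, 585, 704 and 763 CPM in G3D (padj = 0.0975). BTBD19 had a log2 fold change of 1.38 (padj = 0.0975). Among the lower genes, XPOT, the exporter of tRNA from the nucleus, was at -1.18, and IREB2, an iron-regulatory protein that binds RNA, at -1.51 (padj = 0.0633 and 0.0911). The ubiquitin enzymes UBE2D2 and MAEA were at -0.53 and -0.79, and the cadherin CDH19 at -1.59 (padj = 0.0975 each for UBE2D2, MAEA and CDH19). IBTK was at 14.8, 4.93, 2.30 and 2.79 CPM in Control and 0, 0.890, 0.455 and 0.382 CPM in G3D, where a single Control library supplied most of the counts.

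Neuropeptide genes with a symbol were mostly higher. Of 10 such precursors and granule proteins among 48 listed, 7 were higher and 3 lower at an unadjusted p under 0.05. Without overlap between groups, 6 of the 10 were higher. Over all genes with a symbol, 31% were higher, 61.4% lower and 20.4% higher without overlap. Earlier selection as differing in G3D applied to 9 of the 10, so these counts are not independent evidence of a direction. Their median log2 fold change was 0.50, against -0.01 over all genes tested and -0.59 over all genes with a symbol. Only SST passed correction. PACAP, which signals through cAMP, was at 92.9, 159.8, 131 and 122 CPM in Control and 188, 171, 192 and 180.4 CPM in G3D (padj = 0.154). Its relative VIP was at 54.8, 103, 94.2 and 77.2 CPM in Control and 109.6, 117, 112 and 114 CPM in G3D (padj = 0.184). In both, Control replicate 4 was the lowest library and the 4 G3D values were close to each other. TAC1, the precursor of substance P, was at 146, 162, 141 and 123 CPM in Control and 194, 174, 175 and 178 CPM in G3D (padj = 0.264).

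The feeding peptides varied more from chick to chick. GAL, the galanin precursor, was at 42.5, 42.1, 27.4 and 6.20 CPM in Control and 132, 124, 120.5 and 105 CPM in G3D (log2 fold change 2.01 ± 0.69 (SE), padj = 0.215). The G3D chicks lay between 105 and 132 CPM, while Control spanned 6.20 to 42.5 CPM. AGRP had the largest log2 fold change of the list, 4.48 ± 1.73 (SE), but not the firmest (padj = 0.256). It was at 0, 3.00, 1.06 and 0.931 CPM in Control and 27.4, 31.02, 57.3 and 0.764 CPM in G3D, so that 3 G3D chicks expressed it well above Control and G3D replicate 7 did not. UCN3, urocortin 3, a relative of the stress peptide CRH, was at 5.07, 2.68, 1.41 and 1.71 CPM in Control and 7.70, 8.39, 8.42 and 8.03 CPM in G3D (padj = 0.167), and G3D replicate 7 did not stand apart there.

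The 3 lower members serve granules and synapses rather than encode classical hypothalamic peptides, and all 3 overlapped. CPE, the carboxypeptidase that trims peptide precursors, was at 1141, 629, 885 and 1096 CPM in Control and 593, 928, 488 and 699 CPM in G3D (padj = 0.294). SCG3, a granule sorting protein, was at 14.98, 5.90, 6.89 and 7.60 CPM in Control and 2.37, 8.52, 1.36 and 2.48 CPM in G3D (padj = 0.249), and CBLN2, a secreted synapse organizer, at 114, 83.97, 59.2 and 95.2 CPM in Control and 50.1, 84.4, 45.3 and 31.7 CPM in G3D (padj = 0.224). In all 3 genes G3D replicate 5 was the highest of its group. The count of lower members rested on single libraries, being 0 without Control replicate 4 and 1 without G3D replicate 1, 6 or 7.

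**Figure D3:**
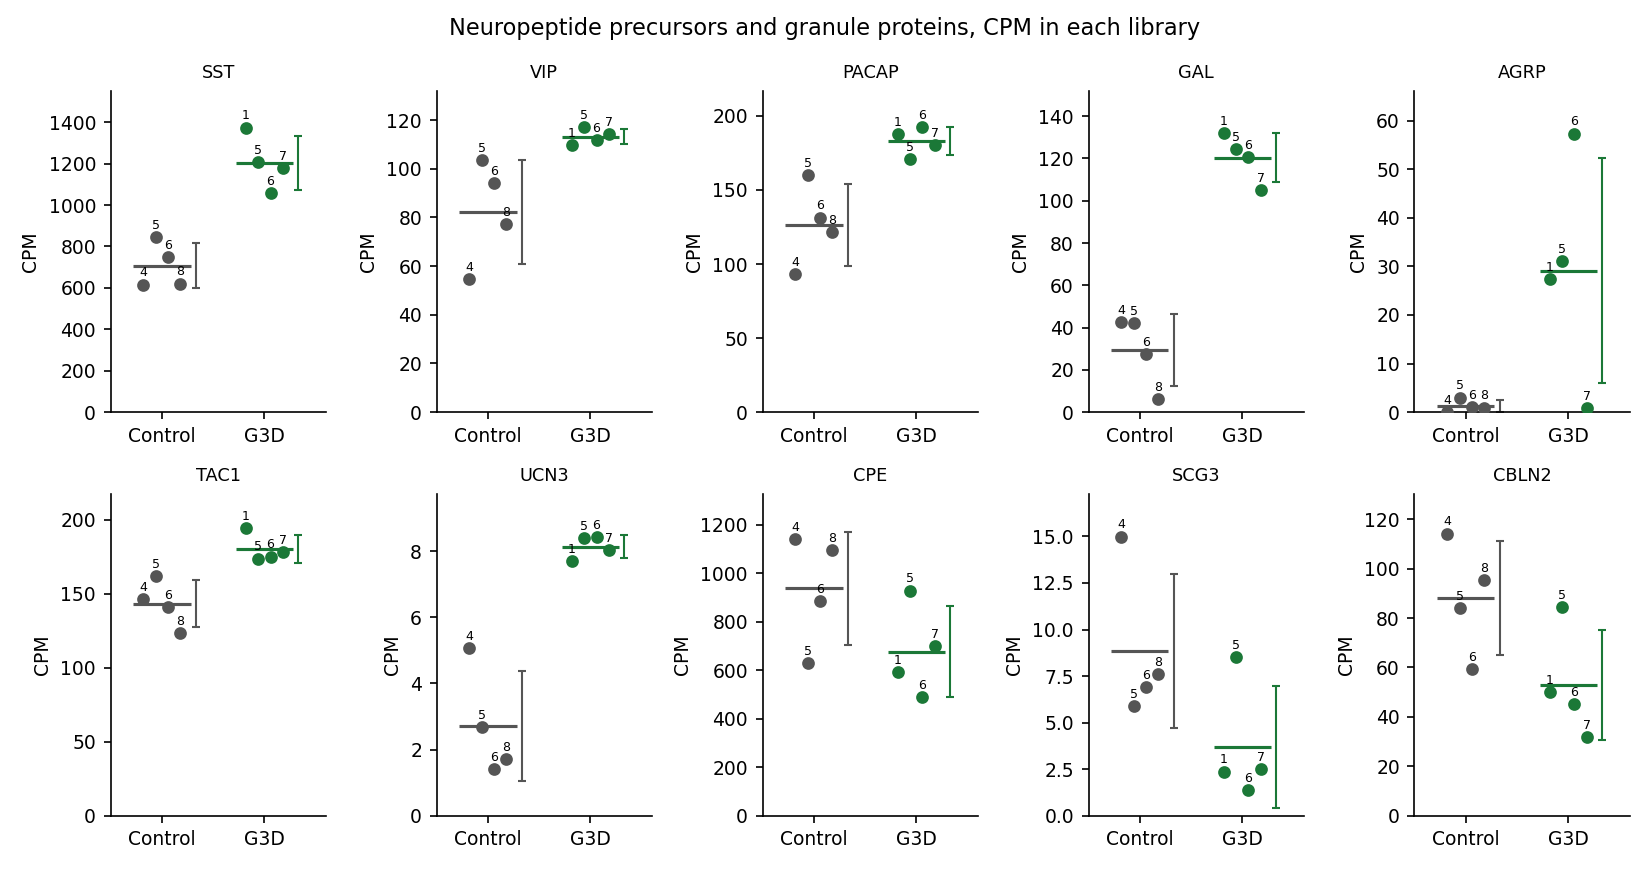
CPM of the 10 neuropeptide precursors and granule proteins with a symbol in each Control (grey) and G3D (green) library, with replicate numbers, the group mean as a line and its SD (n = 4) as a bar. SST, VIP, PACAP, GAL, TAC1 and UCN3 are separate between groups, AGRP is at 27.4 CPM or more in 3 G3D libraries and at 0.764 CPM in replicate 7, and CPE, SCG3 and CBLN2 overlap.

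In the list for leptin, growth hormone, insulin and IGF, 2 of 8 members with a symbol were higher and 6 lower, with a median log2 fold change of -0.74. These shares are near those of all genes with a symbol, of which 31% were higher and 61.4% lower. IGFBP5, a secreted IGF-binding protein, was at 36.2, 34.1, 43.5 and 24.97 CPM in Control and 67.3, 47.7, 48.7 and 53.1 CPM in G3D, and RPTOR, the scaffold of the mTORC1 nutrient sensor, at 96.7, 109, 103 and 104 CPM in Control and 148, 110.4, 159 and 132 CPM in G3D (padj = 0.153 and 0.184). Both had every G3D library above Control, RPTOR by little in G3D replicate 5. The lower members were the adaptor GAB1, the kinases SGK1 and SGK3, LEPROT, IGF2R and APMAP, at log2 fold changes from -0.98 to -0.61. IGF2R, the mannose 6-phosphate receptor that carries enzymes to lysosomes, was the one lower member without overlap, at 31.1, 31.3, 31.3 and 30.7 CPM in Control and 17.3, 26.1, 18.2 and 17.4 CPM in G3D (padj = 0.135). LEPROT, a product of the leptin receptor locus, was at 20.4, 10.5, 16.8 and 22.5 CPM in Control and 12, 12.8, 7.73 and 6.12 CPM in G3D (padj = 0.208) and overlapped.

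Genes of calcium, cAMP and CREB signalling went both ways. Of 14 members, 9 were higher and 4 lower at an unadjusted p under 0.05 (median log2 fold change 0.33), and none passed correction. For all genes with a symbol the shares were 31% and 61.4%, and 13 of the 14 had been selected earlier as differing in G3D. The higher ones include calcium sensors and kinases of neurons. CAMK2A, the kinase of calcium and calmodulin, was at 16.1, 11.5, 6.89 and 8.69 CPM in Control and 19.3, 19.96, 18.9 and 25.4 CPM in G3D, and CACNA1E, the pore of R-type calcium channels, at 142, 163, 133 and 114 CPM in Control and 248, 257, 176 and 178 CPM in G3D (padj = 0.154 and 0.163). NCALD and HPCAL1, neuronal calcium sensors, were at log2 fold changes of 0.42 and 0.34, and ADCY9, which makes cAMP, at 0.52. Among the lower ones, ATP2A2, the pump that refills the endoplasmic reticulum (ER) with calcium, was at 50.3, 39.2, 33.04 and 35.4 CPM in Control and 15.8, 29.8, 19.8 and 27.5 CPM in G3D, the G protein subunit GNB1 at 284, 193, 186 and 235 CPM in Control and 107, 168, 78.2 and 153 CPM in G3D and PRKAR1A, which holds protein kinase A inactive, at 107, 77, 86.8 and 100.5 CPM in Control and 58.8, 73.2, 67.5 and 73.2 CPM in G3D (padj = 0.154, 0.138 and 0.154). All 4 G3D libraries lay below Control in these 3 genes.

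Light-linked and activity-linked lists had few members with a symbol. Each of these members had been selected earlier as differing in G3D, so their direction is not independent evidence. Over all genes with a symbol, 31% were higher and 61.4% lower at an unadjusted p under 0.05. Of genes induced by neuronal activity, RASD1 and KLF10 were higher and SGK1 lower, and all 3 overlapped. RASD1 was at 36.9, 28.4, 34.8 and 28.9 CPM in Control and 87.7, 38.1, 33.9 and 75.9 CPM in G3D (padj = 0.154), high in G3D replicates 1 and 7 and at Control levels in replicate 6. The only member of the opsin and phototransduction list was PDE6G, the inhibitory subunit of the rod phosphodiesterase, at 11.3, 14.3, 11.5 and 8.53 CPM in Control and 22.8, 15, 28.4 and 14.3 CPM in G3D (padj = 0.159). CRYM, a thyroid hormone-binding protein, was the only member of the thyroid and photoperiod list, at 127, 138, 135 and 93.8 CPM in Control and 188, 137, 187 and 163 CPM in G3D (padj = 0.191). No clock gene and no neuropeptide receptor carries a symbol here, and those lists were not analysed.

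Chromatin genes went both ways. Of 11 members, all selected earlier as differing in G3D, 5 were higher and 5 lower, 4 in each direction without overlap. Genes with a symbol as a whole were 31% higher and 61.4% lower, 20.4% and 27.5% without overlap. Besides the falls of HDAC11 and BRWD1, ARID4A, a chromatin-binding subunit of a deacetylase complex, was at 7.01, 6.76, 7.42 and 7.75 CPM in Control and 2.81, 3.18, 1.36 and 4.59 CPM in G3D (padj = 0.123). The higher members included DNMT3A, the bromodomain protein BRPF1, the deacetylase SIRT2 and BCL7A of the SWI/SNF remodeller. BRPF1 was at 28.4, 29.2, 14.3 and 21.4 CPM in Control and 44.1, 34.3, 41.4 and 31.5 CPM in G3D and SIRT2 at 151, 181, 166 and 147 CPM in Control and 205, 196, 241 and 205 CPM in G3D (padj = 0.154 and 0.150).

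Ribosomal protein genes with a symbol were mostly higher. Of these 14, 12 were higher and 2 lower, 8 and 2 of them without overlap. Over all genes with a symbol, 31% were higher and 61.4% lower, and 20.4% and 27.5% had no overlap. These shares are not matched for level. The 12 higher members averaged 589 CPM or more in Control, within the strongest quartile of all genes. In that quartile 356 genes were higher and 214 lower at an unadjusted p under 0.05. Whether the list differs from other genes of its level was not tested. All 14 had been selected earlier as differing in G3D, so their counts and their sum are not independent evidence. Summed over the 14, their level was 11290 to 14630 CPM in Control and 15430 to 18190 CPM in G3D. RPLP0 was at 748, 723, 868 and 694 CPM in Control and 1106, 953, 1042 and 935 CPM in G3D (log2 fold change 0.41 ± 0.09 (SE), padj = 0.105). RPS3 and RPL4 were at log2 fold changes of 0.35 and 0.43. The exceptions were identifiers named RPS7 and RPS24, at 44.7, 26.3, 15.2 and 14.3 CPM in Control and 1.19, 0.890, 1.82 and 11.1 CPM in G3D for RPS7 and at 23.3, 15.9, 15.7 and 9.62 CPM in Control and 6.07, 5.72, 7.73 and 8.41 CPM in G3D for RPS24. Both are far weaker than the other ribosomal proteins with a symbol. The reason was not tested, and these values are uncertain.

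ER chaperones and their partners went both ways, with 6 of 11 higher and 5 lower at an unadjusted p under 0.05. Each of the 11 had been selected earlier as differing in G3D, and the shares over all genes with a symbol were 31% and 61.4%. All 6 higher ones were free of overlap. That is 6 of the 11 members, while 20.4% of all genes with a symbol were higher without overlap. MANF, an ER-resident neurotrophic factor, was at 163, 183, 194 and 189 CPM in Control and 314, 228, 305 and 242 CPM in G3D (padj = 0.111). HM13, the signal peptide peptidase, was at 253, 259, 243 and 271 CPM in Control and 384, 308, 318 and 313 CPM in G3D, and PDIA3, a protein disulfide isomerase, at 79.3, 86.4, 71.03 and 79.6 CPM in Control and 98.7, 89.2, 124 and 114 CPM in G3D (padj = 0.135 and 0.167). HSP90B1, HYOU1 and OST4, the chaperones GRP94 and ORP150 and a subunit of the enzyme that adds N-glycans, were at log2 fold changes of 0.64, 0.33 and 0.31. Of the 5 lower members, WFS1, the ER membrane protein wolframin, alone had no overlap, at 7.87, 1.72, 5.65 and 6.36 CPM in Control and 1.48, 1.65, 1.14 and 1.53 CPM in G3D (padj = 0.105). The count of lower members was 2 without Control replicate 4 and 3 without Control replicate 8 or G3D replicate 1, 6 or 7, and 2 when libraries were thinned.

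Of 8 cytosolic chaperones, 6 were lower and 2 higher, with a median of -0.57 close to the -0.59 of all genes with a symbol (61.4% lower). The lower ones include FKBP4 at 117, 104, 112 and 118 CPM in Control and 48.4, 92.4, 58 and 87.1 CPM in G3D and ST13 at 22.1, 19.4, 21.2 and 23.9 CPM in Control and 14.1, 16.6, 9.10 and 10.3 CPM in G3D, both cochaperones of steroid receptors (padj = 0.138 and 0.168). PFDN1 of prefoldin and STUB1, a chaperone-linked ubiquitin ligase, were the 2 higher ones, at log2 fold changes of 0.32 and 0.28. FKBP4 also shows the spread within G3D, since replicates 1 and 6 were well below replicates 5 and 7.

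The 4 mitochondrially encoded genes with a symbol, subunits of respiratory complex I, were all lower at an unadjusted p under 0.05, and 3 of them did not overlap. They had all been selected earlier as differing in G3D. Of all genes with a symbol, 61.4% were lower and 27.5% lower without overlap. MT-ND4 was at 1836, 1593, 1215 and 1826 CPM in Control and 785, 979, 375 and 826 CPM in G3D (log2 fold change -1.12 ± 0.22 (SE), padj = 0.0911). MT-ND2 was at 128, 63.4, 82.5 and 64.4 CPM in Control and 48.1, 45.9, 22.3 and 55.03 CPM in G3D and MT-ND3 at 246, 216, 223 and 185 CPM in Control and 138, 120.4, 120.5 and 173 CPM in G3D (padj = 0.154 and 0.135). ND1, the most abundant, was at 3877, 3242, 2129 and 2711 CPM in Control and 2095, 2220, 1115 and 2453 CPM in G3D and overlapped. Summed, the 4 held 3649 to 6087 CPM in Control and 1633 to 3506 CPM in G3D, the lowest being G3D replicate 6, which was also the library with the fewest counts. In the fit on thinned libraries all 4 were lower at an unadjusted p under 0.05. Random thinning keeps the expected CPM of such abundant genes, so this fit cannot speak to the make-up of G3D replicate 6.

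Of 9 nuclear genes listed for the tricarboxylic acid cycle and reactions next to it, 7 were lower and 2 higher. Their median log2 fold change of -0.59 was that of all genes with a symbol (-0.59, with 61.4% lower). The lower ones include MDH1, the cytosolic malate dehydrogenase, and the pyruvate dehydrogenase genes PDHX and PDP1, which are not enzymes of the cycle itself. SDHA, the catalytic subunit of succinate dehydrogenase, was at 233, 209.5, 263 and 166 CPM in Control and 75.7, 132, 72.6 and 114 CPM in G3D (padj = 0.112), MDH1 at 351, 433, 369.6 and 513 CPM in Control and 252, 345, 259.7 and 246 CPM in G3D (padj = 0.154) and PDHX, a part of the pyruvate dehydrogenase complex, at 12.8, 5.15, 5.48 and 8.38 CPM in Control and 2.07, 4.07, 0.227 and 2.48 CPM in G3D (padj = 0.131). CS and DLST, citrate synthase and a subunit of the 2-oxoglutarate dehydrogenase complex, were higher without overlap, at log2 fold changes of 0.60 and 0.74. Of all genes with a symbol, 20.4% were higher without overlap. Of 6 glycolysis genes, 5 were lower and 1 higher, against 61.4% and 31% of all genes with a symbol. The higher count was 0 without G3D replicate 6. All 9 genes of the first list and all 6 of glycolysis had been selected earlier as differing in G3D. LDHB, the heart-type lactate dehydrogenase subunit, was at 1385, 1342, 1207 and 1379 CPM in Control and 858, 1085, 993 and 1002 CPM in G3D (padj = 0.105). PGP and GYG1, which detoxifies a side product of glycolysis and primes glycogen, respectively, were at -0.78 and -0.94 on the log2 scale.

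Sterol and lipid genes formed the largest list, and 17 of its 21 members were lower at an unadjusted p under 0.05, 8 of them without overlap. Earlier selection as differing in G3D applied to 19 of the 21. Among all genes with a symbol, 61.4% were lower and 27.5% lower without overlap. The median was -0.89, the lowest of the lists with at least 4 members. DHCR7, a late enzyme of cholesterol synthesis, was at 55.3, 42.4, 41.9 and 49.01 CPM in Control and 14.8, 29.9, 20.02 and 34.97 CPM in G3D (padj = 0.130). SGPP1, a sphingosine phosphate phosphatase, was at 6.36, 5.58, 4.59 and 5.43 CPM in Control and 3.70, 1.02, 1.36 and 1.91 CPM in G3D and HACL1, of peroxisomal fatty acid oxidation, at 16.2, 4.40, 4.06 and 9.31 CPM in Control and 1.33, 1.65, 3.18 and 4.01 CPM in G3D (padj = 0.138 and 0.140). MSMO1, an oxidase of sterol synthesis, had a log2 fold change of -0.62, while SC5D of the same pathway was at -0.00 and did not pass. The higher members, 1 in number without Control replicate 4 or 6 or G3D replicate 1 or 6, were PDSS2 and LPCAT3, a phospholipid acyltransferase, at 0.46 and 0.37.

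The most abundant member of the lipid list is also an oligodendrocyte gene, and oligodendrocyte markers were lower as well. UGT8 makes the myelin lipid galactosylceramide and was at 459.6, 276, 719 and 986 CPM in Control and 223, 464, 152 and 361 CPM in G3D (padj = 0.277). All 3 oligodendrocyte markers with a symbol among 14 listed, UGT8, ENPP2 and OMG, were lower at an unadjusted p under 0.05. Each had been selected earlier as differing in G3D, and 61.4% of all genes with a symbol were lower. The summed level of the 3 markers was 484 to 1310 CPM in Control and 308 to 673 CPM in G3D, which overlap. ENPP2, autotaxin, was at 191, 175, 343 and 281 CPM in Control and 116, 169, 139 and 152 CPM in G3D (padj = 0.158) and did not overlap. Control replicates 6 and 8 had the highest sums, and without either of them, or without G3D replicate 1 or 6, 1 of the 3 markers stayed below that p. The part of oligodendrocyte content in the lipid result was not tested.

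Genes of endosomes and lysosomes went both ways, read against 61.4% lower, 31% higher and a median of -0.59 over all genes with a symbol. Of 14 members of the clathrin and endophilin list, 10 were lower and 3 higher (median -0.54). Clathrin's heavy chain CLTC was at 189, 174, 132 and 138 CPM in Control and 92, 81.8, 113 and 128 CPM in G3D and the neuronal endophilin SH3GL2 at 181, 166, 132 and 174 CPM in Control and 90.2, 125, 84.4 and 107 CPM in G3D (padj = 0.157 and 0.105), alongside the fall of SH3GL3. The third endophilin, SH3GL1, which is expressed in many tissues, was at 166, 164, 157 and 155 CPM in Control and 179, 187, 211 and 199 CPM in G3D (padj = 0.216). Light chain B, CLTB, at 819, 982, 1025 and 973 CPM in Control and 1160, 1084, 1182 and 1225 CPM in G3D, and the adaptor subunit AP2M1, at 498, 541, 539.6 and 460.5 CPM in Control and 811, 567, 593 and 602 CPM in G3D, were higher as well (padj = 0.163 and 0.176). In the lysosome and V-ATPase list, 10 of 12 members were lower and 2 higher (median -0.69), and 6 were lower without G3D replicate 1. ATP6V1A, the catalytic subunit of the proton pump, was at 95.8, 71.95, 74.7 and 102 CPM in Control and 39.3, 65.9, 29.3 and 43.4 CPM in G3D (padj = 0.130), whereas ATP6V0D1 of its membrane sector was at 342, 383, 335 and 248 CPM in Control and 479, 386, 459 and 407 CPM in G3D (padj = 0.154). The lysosomal membrane proteins LAMP1 and LAMP2 were at log2 fold changes of -0.99 and -0.71 and overlapped (padj = 0.163 and 0.278).

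Of 10 genes of synaptic release, 7 were lower and 2 higher, near the shares of all genes with a symbol (61.4% and 31%). The higher count was 1 without Control replicate 4, 5 or 8 or G3D replicate 1 or 6. NAPG and SNAP29, which act on SNARE complexes, were at 9.27, 8.26, 9.01 and 12.1 CPM in Control and 4.30, 6.99, 2.73 and 1.72 CPM in G3D for NAPG and at 14.3, 10.4, 8.66 and 9.77 CPM in Control and 5.93, 6.61, 5.46 and 6.31 CPM in G3D for SNAP29 (padj = 0.154 and 0.168). SNAP25, a presynaptic SNARE protein, was at 850.0, 809, 704 and 875 CPM in Control and 498, 838, 573 and 530.1 CPM in G3D (padj = 0.264), with G3D replicate 5 at the Control level. The growth cone proteins GAP43 and STMN2 were the higher ones, at 737, 789.9, 667 and 662 CPM in Control and 963, 838, 855 and 923 CPM in G3D for GAP43 and 1649, 1976, 2599 and 1929 CPM in Control and 2586, 2188, 3223 and 2308 CPM in G3D for STMN2 (padj = 0.186 and 0.315). Among the 3 neuron markers with a symbol, SNAP25 and ELAVL2 were lower and STMN2 higher, but the higher count was 0 without Control replicate 4, 5 or 8 or G3D replicate 1 or 6, and the lower count 1 without Control replicate 4 or 8 or G3D replicate 1, 6 or 7. Their summed levels overlapped (2514 to 3314 CPM in Control, 2845 to 3804 CPM in G3D). Among transmitter genes, GAD2 and GAD67, the enzymes that make GABA, were at log2 fold changes of -0.93 and -0.56 and the glycine receptor subunit GLRA2 at -1.10 (padj = 0.154, 0.253 and 0.125).

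Of 40 genes in the EGFR, Ras and MAPK list, 8 carry a symbol, all selected earlier as differing in G3D. These 8 were lower at an unadjusted p under 0.05, 4 of them without overlap (median -0.87). The shares over all genes with a symbol were 61.4% lower and 27.5% lower without overlap. MAPK6, the most abundant, was at 134, 115, 98.4 and 119.6 CPM in Control and 69.5, 93.7, 62.1 and 80.6 CPM in G3D, and the exchange factor SOS2 at 24.1, 27.7, 26.9 and 29.9 CPM in Control and 15.1, 22.5, 14.1 and 19.1 CPM in G3D (padj = 0.167 and 0.167). RALB, a Ras-like GTPase, was at 27.2, 20.7, 25.3 and 34.6 CPM in Control and 14.7, 18.2, 9.10 and 14.3 CPM in G3D (padj = 0.157). ADAM10, the protease that sheds growth factors, was at 12.3, 13.3, 18.9 and 22.03 CPM in Control and 7.41, 12.8, 1.82 and 5.54 CPM in G3D and overlapped (padj = 0.181). In the NF-kB and innate immunity list, 2 of 6 were higher and 3 lower, against 31% and 61.4% of all genes with a symbol. NFKBIB, an inhibitor that holds NF-kB in the cytoplasm, was at 18, 17.1, 11.5 and 15.2 CPM in Control and 24.3, 27.2, 20.5 and 24.5 CPM in G3D, and IFNAR1, a chain of the type I interferon receptor, at 16.8, 12.2, 8.48 and 14.7 CPM in Control and 3.26, 3.56, 5.91 and 7.83 CPM in G3D (padj = 0.176 and 0.138). SIKE1, the most abundant member, had a log2 fold change of -0.37 and did not pass.

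**Figure D4:**
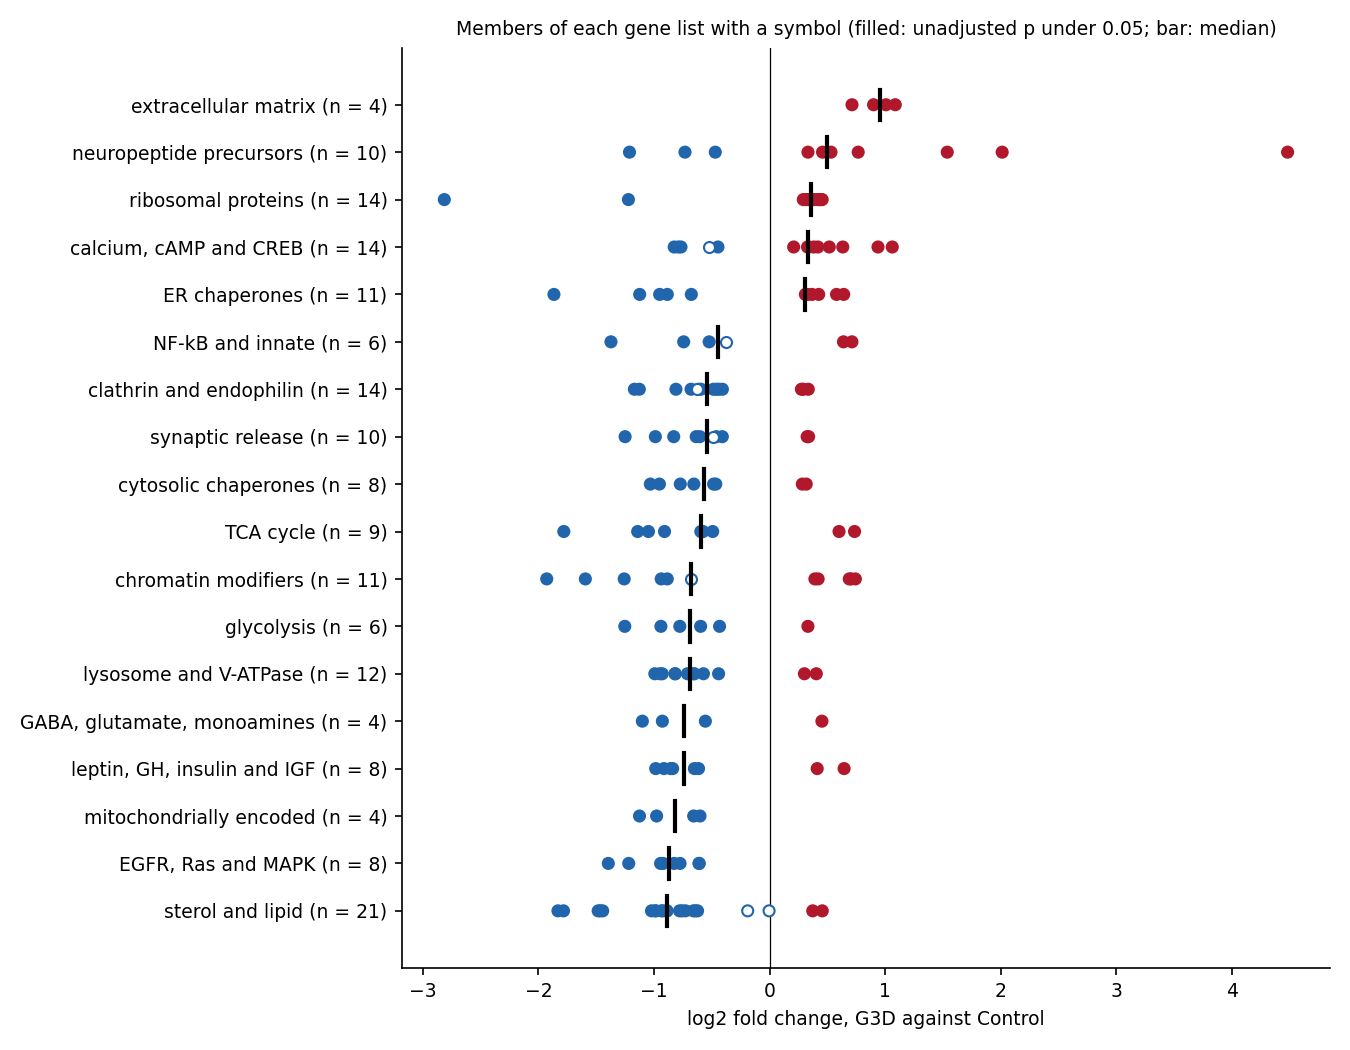
Log2 fold change in G3D against Control of each tested member with a symbol, for the lists with at least 4 such members, ordered by their median (black bar), with filled points for an unadjusted p under 0.05. The extracellular matrix list has the highest median (0.95) and the sterol and lipid list the lowest (-0.89), and nearly every point is filled because the symbols come from genes already selected on these chicks.

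Of 35 extracellular matrix genes listed, 4 carry a symbol, all selected earlier as differing in G3D. These 4 were higher at an unadjusted p under 0.05, 3 of them without overlap, beside markers of fibroblasts and mural cells. Over all genes with a symbol, 31% were higher and 20.4% higher without overlap. COL6A2 was at 9.70, 8.58, 10.2 and 6.51 CPM in Control and 19.9, 17.2, 15.7 and 12.6 CPM in G3D and MMP15, a membrane-bound metalloproteinase, at 14.3, 18.2, 22.6 and 15.98 CPM in Control and 27.6, 25.2, 36.9 and 27.1 CPM in G3D (padj = 0.130 and 0.154). FMOD, fibromodulin, which binds collagen fibrils, was at 19.9, 30.7, 14.7 and 17.99 CPM in Control and 21.9, 49.1, 37.3 and 60.2 CPM in G3D (padj = 0.153) and overlapped. COL1A2 and FMOD are the only fibroblast and mural markers with a symbol among 13 listed. Their sum was 43.6 to 62.8 CPM in Control and 74.8 to 140.4 CPM in G3D. Because both were selected earlier as differing in G3D, this separation is not independent evidence. These cells lie in the meninges and vessel walls, and how much of them each dissected hemisphere held was not tested.

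The few markers of the ventricle wall and of brain regions with a symbol were higher too. Symbols were found for 3 of 12 ventricle wall, 3 of 17 hypothalamic and 2 of 11 telencephalic markers. All of these had been selected earlier as differing in G3D, so their direction and sums are not independent evidence. The share of higher genes was 31% over all genes with a symbol. VIM, CRYM and CFAP45, which tanycytes and ependymal cells express, were all higher, with a sum of 287 to 335 CPM in Control and 376 to 628 CPM in G3D. VIM, vimentin, was at 166, 158, 183 and 175 CPM in Control and 408, 279, 202 and 196 CPM in G3D (padj = 0.137), highest in G3D replicate 1. The hypothalamic region markers SIX3, VAX1 and SOX14 were higher, with a sum of 124 to 161 CPM in Control and 236 to 289.9 CPM in G3D. VAX1, a homeobox factor of the basal forebrain, was at 2.05, 2.04, 2.30 and 1.71 CPM in Control and 11.8, 4.07, 6.82 and 2.87 CPM in G3D and SOX14 at 10.8, 19.3, 15.6 and 24.8 CPM in Control and 20.3, 48.1, 33.2 and 42.2 CPM in G3D (padj = 0.167 and 0.138). EMX2 and ZBTB20, markers fixed for the telencephalon that neighbours the hypothalamus, were higher as well, with a sum of 32.6 to 48.5 CPM in Control and 53.0 to 76.7 CPM in G3D. EMX2 was at 20.4, 30.6, 29.7 and 25.8 CPM in Control and 35.3, 37.2, 50.5 and 45.3 CPM in G3D (padj = 0.135). These region markers were higher, as were most neuropeptides with a symbol, and the part of the dissection in either was not tested. No member with a symbol was found for the lists of astrocytes, oligodendrocyte precursors, microglia, endothelium, erythrocytes, choroid plexus, pituitary, thalamus and optic tectum, or retina.

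One G3D chick stood nearer to Control than the other 3 did. Of the 713 genes higher in G3D at an unadjusted p under 0.05, G3D replicate 5 lay inside the Control range in 34.6%, against 9.12%, 10.1% and 16.3% for replicates 1, 6 and 7. Of the 924 lower genes it lay inside in 43.4%, against 12%, 8.77% and 20.9%. Without it the number of genes with a padj under 0.05 was 45 higher and 176 lower, the 10 calls included, and 166 of these 221 genes have a symbol. It was the most deeply counted G3D library. For the 7 higher members of the neuropeptide list it did not lie among the Control values. Its SST, GAL, UCN3 and AGRP were within the range of the other G3D libraries, and its VIP was above them. Its PACAP and TAC1 were the lowest of G3D but above every Control library. For 6 of these 7 the groups do not overlap, so that no G3D library could lie in the Control range. For the lower members CPE, SCG3 and CBLN2, G3D replicate 5 lay inside the Control range. The counts of members in each list at an unadjusted p under 0.05 moved by at most 1 without G3D replicate 5. Nearly all members had passed with all libraries, so these counts had little room to rise. Over all genes tested, 860 were higher and 1304 lower at that p without this library, against 713 and 924 with it.

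**Figure D5:**
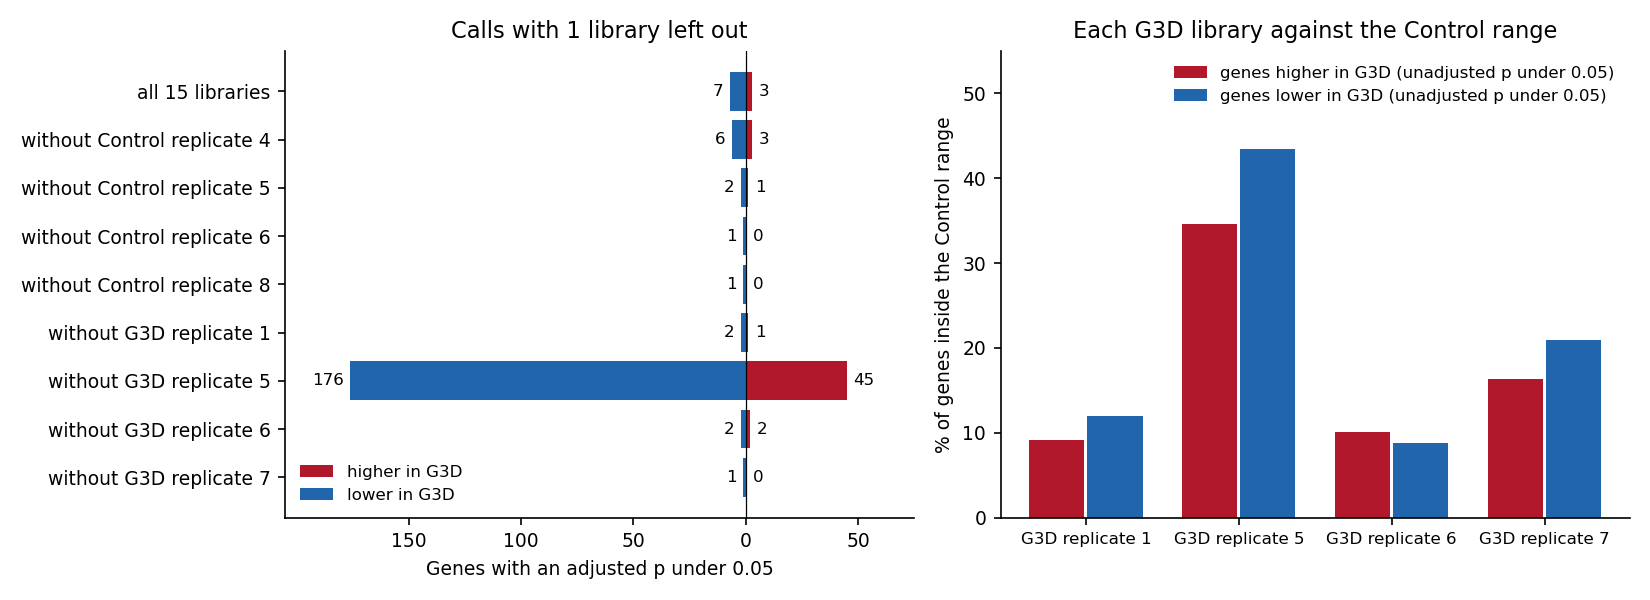
Left, the number of genes with a padj under 0.05 that were higher (red, to the right) or lower (blue, to the left) in G3D with all 15 libraries and with each of the 8 libraries left out. Right, the percentage of the 713 higher and 924 lower genes for which each G3D library lay within the range of the 4 Control libraries, largest for G3D replicate 5 at 34.6% and 43.4%.

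No gene was called between G3D and Green in edgeR. This direct contrast gave 0 genes (0% of 10475), with 387 at an unadjusted p under 0.05 and a smallest padj of 0.640. DESeq2 called 2 genes in it and limma-voom 0. SST averaged 1204 ± 129.9 CPM in G3D (SD, n = 4), 995 ± 23.3 CPM in Green (n = 3), 708 ± 110.3 CPM in Control (n = 4) and 853 ± 157 CPM in White (n = 4). HDAC11 averaged 17.6 ± 1.92 CPM in G3D (SD, n = 4), 27.9 ± 11.2 CPM in Green (n = 3), 53.5 ± 9.63 CPM in Control (n = 4) and 58.4 ± 22.5 CPM in White (n = 4), and COL1A2 70.3 ± 17.5 CPM in G3D (SD, n = 4), 46.3 ± 14.2 CPM in Green (n = 3), 33.1 ± 4.80 CPM in Control (n = 4) and 32.3 ± 2.17 CPM in White (n = 4). The Green mean lay between Control and G3D for these 3 genes. It did not for VIP, whose means were 113 ± 3.18 CPM in G3D (SD), 136 ± 12.6 in Green, 82.4 ± 21.4 in Control and 114 ± 12.8 in White, nor for TAC1, with 180.3 ± 9.41 CPM in G3D (SD), 214 ± 30.9 in Green, 143 ± 15.9 in Control and 165 ± 36.7 in White. MANF averaged 272 ± 43.7 CPM in G3D (SD), 275 ± 26.2 in Green, 182 ± 13.9 in Control and 214 ± 44.5 in White and PACAP 183 ± 9.42 CPM in G3D (SD), 182 ± 14.99 in Green, 126 ± 27.6 in Control and 164 ± 37.5 in White. A padj that misses the threshold does not show that the 2 green regimes act alike. The contrast of G3D with White called 437 genes (4.17%). SST (padj = 0.0339), COL1A2 (padj = 0.00841), HDAC11 (padj = 0.00662), SH3GL3 (padj = 0.0416) and BRWD1 (padj = 0.0170) were among them. Several genes higher in G3D than in Control at an unadjusted p under 0.05 were called neither against Control nor against White. These include MANF (padj = 0.111 against Control and 0.134 against White) and PACAP (padj = 0.154 and 0.562). UCN3 (padj = 0.167 and 0.688) and BTBD19 (padj = 0.0975 and 0.973) are further ones. GAL was at 84.5 CPM in White and 95.5 CPM in Green, and G3D was not called against either (padj = 0.674 and 0.999). AGRP was at 11.1 CPM in White and 25.2 CPM in Green (padj = 0.585 and 0.999).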

How the data were processed

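Hypothalamic RNA of 15 chicks was measured by bulk MARS-Seq. According to the methods text, the authors trimmed adapters with Cutadapt, mapped reads with STAR to the 3′ UTR regions of Galgal 6.0 (GRCg6a in the submitters' processing notes), marked duplicates by gene and molecular identifier and counted with HTSeq-count. The values they deposited are whole-number counts without normalization for 24356 Ensembl genes, of which 17647 had a count. All 15 columns matched a sample, and 0 were left out. Reads that fall outside an annotated 3′ end are lost from such counts. Same-group pairs of libraries differed by more than counting error (chi-square per degree of freedom 15.2 to 24.7 in Control and 15.3 to 27.6 in G3D), so each was kept as 1 replicate. Nothing states how replicates were reared apart, and p-values measure only the spread between these samples.

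Counts were fitted with edgeR 4.0.16 in R 4.3.3 (filterByExpr, TMM scaling, robust quasi-likelihood test, Benjamini-Hochberg adjustment) in 1 fit over all 15 libraries, since no batch is given. The common biological coefficient of variation was 0.258. CPM, log2 fold changes and standard errors come from this fit, and single genes were also compared by an exact permutation test of log2 CPM with a prior count of 2. Steps were tested on simulated data. Results were recomputed with limma-voom (limma 3.58.1) and DESeq2 1.42.0, other scalings and filters, only the 8 libraries compared, the replicate number as a block, no robust shrinkage, a minimum log2 fold change of 0.5 and each library left out. Thinning all libraries to the shallowest one was chosen after seeing the data.

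Symbols were taken from the gene-name column of a supplementary table of the study. Gene lists, members and alternatives were chosen with earlier results of these data known. Genes named are those with a padj under 0.05 and, per list, up to 3 per direction with the smallest unadjusted p and no overlap, and the member with the highest mean CPM; any other was chosen after its values were seen (such as AGRP, GAL, VIP, TAC1, CPE, SCG3, CBLN2, LEPROT, LAMP1, LAMP2, ADAM10, SNAP25, GAD67, SOX14, FMOD, ZBTB20, OMG, MSMO1 and the genes with a padj from 0.05 to 0.1 that no list holds). The regulators OPN1MSW, FOS, GHR, LEPR, MYC, KAT2B, KAT2A, EP300, CREBBP, CREB1, TRH and GHRH, also planned, have no identifier with a symbol here and were not analysed. The planned views of promoter motifs and of sex chromosomes were not analysed here. Some other genes are not reported here.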

Additional observations from a re-analysis of the deposited data

Results flagged for a closer look

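In 238 groups of 4 libraries over the 119 genes named, 5 held 1 library farther from the other 3 than Dixon's limit for 4 values allows, where chance gives about 1 in 20. IGF2R in G3D replicate 5 was at 26.1 CPM, while the other G3D libraries were at 17.3 to 18.2 CPM. MDH1 in the same library was at 345 CPM against 246 to 259.7 CPM. G3D replicate 1 stood apart for HM13, at 384 CPM against 308 to 318 CPM, and for AP2M1, at 811 CPM against 567 to 602 CPM. Among Control libraries, RAB3GAP1 in replicate 8 was at 58.6 CPM against 54.1 to 54.5 CPM.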

How the results depend on the processing

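The counts at a padj under 0.05 (3 higher, 7 lower) depended on the tool and on single libraries. DESeq2 gave 82 higher and 141 lower, all genes with at least 1 count 10 and 20, limma-voom 2 and 2, the 8 libraries compared alone 5 and 7, and the thinned libraries 1 and 7. With 1 library left out they ranged from 0 to 45 higher and from 1 to 176 lower, with the upper ends reached without G3D replicate 5. At an unadjusted p under 0.05 (713 and 924), a log2 fold change of at least 0.5 left 307 higher and 740 lower, and leaving out 1 library gave 526 to 860 and 619 to 1304. Apart from the replicate block, the other settings kept each count within 1.5 times its value. Upper-quartile scaling gave 640 and 985. No direction reversed for any of the 119 genes named or the 4 counts under these settings. DESeq2 took 59 of the named genes past the threshold, and leaving out G3D replicate 5 took 38. The cause was not tested. With 4 chicks a group and a biological coefficient of variation of 0.258, small changes could miss the threshold.

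Replicate numbers 5 and 6 occur in both groups. Their deviations from the group means correlated at -0.10 and 0.12, while pairs with different numbers ran from -0.14 to 0.13. So few pairs cannot tell whether the numbers mark a shared tray or day. With the replicate number as a block, 0 genes were higher and 3 lower at a padj under 0.05, none of them among the 10 calls, and 249 and 347 at an unadjusted p under 0.05. Numbers 4 and 8 occur only in Control, so the block leaves those libraries no weight in the contrast. Fewer calls in this fit therefore cannot be told apart from lost information.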
